A study of Homo sapiens with 12 samples.

Results

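The response of ATF3-knockout (KO) HCT116 cells to 4 h of 1.5 uM camptothecin (CPT) was measured on 6 of the 12 bead arrays of the series, 3 from KO cells with CPT and 3 from KO cells with the solvent DMSO for the same time. The arrays were chosen by their labels alone. HCT116 is a colon cancer cell line, grown here in McCoy's 5A medium with serum. The KO line, labelled E11, carries a small Cre-generated deletion in an exon of each ATF3 allele, placed there by recombination with a viral targeting vector, and all 6 KO arrays came from this single clone name. The other 6 arrays held ATF3-wild-type (WT) HCT116 cells with the same treatments (n = 3 each), and were used for the estimate of the spread and for the closing comparison. The labels number the replicates without stating whether each was a separate culture, and every p-value below covers just the variation among these arrays, which could be technical.

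CPT traps topoisomerase I (TOP1), the enzyme that relaxes supercoils ahead of moving polymerases, in a covalent complex with a nicked DNA strand. Such complexes stall RNA polymerase II within genes and are turned into double-strand breaks by replication forks, and the breaks activate the checkpoint kinases and p53, which is wild-type in HCT116 cells. The p53 protein switches on genes for cell cycle arrest, apoptosis, repair and its own restraint. ATF3 is a stress-induced transcription factor of the basic leucine zipper class that binds ATF/CRE and AP-1 DNA elements, the sites shared by the FOS, JUN, CREB and MAF families, and is known to interact with p53. The KO cells therefore show which parts of the early CPT response were present in cells whose ATF3 gene had been disrupted.

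The KO arrays detected 15427 to 16292 probes under DMSO and 13732 to 15639 under CPT, with median raw signals of 98.2 to 105.4 and 100 to 102.3. Of 11 colon epithelial markers, 6 were detected on all 6 KO arrays, namely EPCAM, CDH1, KRT8, KRT18, KRT19 and CDX2. The other 5, including the differentiation markers KRT20 and VIL1, were detected on none. The summed raw signal of the 11 markers was 15161 to 16242.4 under DMSO and 10530.7 to 15481.3 under CPT. KRT19, the brightest, had a median raw signal of 8151.1 under DMSO and 5428.7 under CPT. Those of EPCAM (2352.9 and 2537.9), CDH1 (655.9 and 685.7) and KRT8 (3282.5 and 3389.5) were higher under CPT. Those of KRT18 (253.4 and 214) and CDX2 (277.6 and 235.9) were lower. No marker of fibroblasts (0 of 8) or endothelium (0 of 6) was detected on all 6 KO arrays, and of 10 haematopoietic markers on the array 1 was. Of 5 liver markers 1 was (SERPINA1), of 4 muscle markers 1 (ACTA2) and of 5 neuron markers 0. The neuron marker SYT1 was detected on 3 DMSO and 2 CPT arrays, with median raw signals of 260.7 and 128. CD14, a monocyte marker, was detected on 0 KO DMSO and 3 KO CPT arrays, while the sum of the haematopoietic markers was 1093.8 to 1181.5 under DMSO and 1134.8 to 1260.1 under CPT. In such bulk samples a loss of cells that express a gene and less RNA per cell cannot be told apart.

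ATF3 mRNA was measured first. It had raw signals of 127.1, 117 and 130.9 under DMSO and 289.8, 254 and 282.1 under CPT, so the groups did not overlap. The change was 2.53 ± 0.47 (adjusted p = 0.00166), here and below as the log2 difference CPT minus DMSO in KO cells ± its standard error, with the adjusted p of limma's test over all genes. Whether the probe overlaps the deletion is not known here, and its signal does not measure the protein. In WT cells ATF3 rose by 3.56, from raw signals of 168, 156.8 and 390.4 under DMSO and 1123.3, 992.8 and 1713.8 under CPT. The difference between the genotypes in this rise, -1.03 ± 0.46 (adjusted p = 1 with the replicate block), did not pass the test.

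At an adjusted p under 0.05, 3327 of the 10464 genes tested (31.8%) changed in KO cells, of which 1450 (13.9% of the genes tested) rose and 1877 (17.9%) fell. Falls were larger: 981 genes fell and 403 rose by more than 1 on the log2 scale, and 129 fell and 45 rose by more than 2. The median change of the genes that fell was -1.03 and that of the genes that rose was 0.81, against 0.03 over all genes. The arrays did not overlap between CPT and DMSO for 2463 genes that were higher (23.5%) and 2654 that were lower (25.4%), and 3288 of the called genes were among these. In all 3 pairs of arrays with the same replicate number, 3322 of the called genes changed in the called direction. Both counts of called genes come from the arrays that made the calls and are no separate support for them.

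The balance of rises and falls depended on how the arrays were scaled to one another. Quantile normalization, used for the values here, called 43.6% of the changed genes up. Scaling to the median of all probes shifted the median of all genes to -0.19 and gave 432 rises and 2443 falls (15% up). Scaling to the median of the detected probes, chosen after seeing the data, shifted it to 0.20 and gave 2313 rises and 1557 falls (59.8% up). The authors' own normalized values gave 459 rises and 869 falls (34.6% up), with a median of all genes of 0.04. These values were made separately for replicate 1 and for replicates 2 and 3, with upper quartiles of 55.4 and 31.5. They were fitted here without the replicate block, so this offset entered the spread. Its part in the lower number of calls was not tested. The changes below are therefore relative to the whole distribution of signals on the arrays and not to the amount of RNA per cell. The replicate numbers paired the samples, and with the replicate number as a block 5085 genes were called, 2523 up and 2562 down, all 3327 genes among them. Without KO DMSO replicate 2 the rises numbered 955. Counts in the gene lists below moved too, and where one moved by over 1.5 times its range over 6 other settings stands beside it (no background correction, both median scalings, the authors' values, the replicate block, and replicates 2 and 3 alone). Of the housekeeping genes, 5 of 26 tested members rose (0 to 8 over other settings) and 3 fell (0 to 6 over other settings, 6 with the replicate block), with a median of -0.02 (0.33 under scaling to the median of detected probes). The counts of each list below are to be read beside the shares over all genes, 13.9% up and 17.9% down.

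Among genes detected on all 6 KO arrays, TENT5C and CCN2 had the largest rises. TENT5C, a non-canonical poly(A) polymerase that restrains proliferation, had raw signals of 109.8, 116.7 and 128.7 under DMSO and 468.5, 453.5 and 605.5 under CPT and rose by 3.79 ± 0.36 (adjusted p = 2.21e-05). CCN2, a secreted matricellular protein, measured 144.1, 143.9 and 184.1 under DMSO and 479.4, 958.9 and 1190.2 under CPT and rose by 3.62 ± 0.57 (adjusted p = 0.000605), and another CCN2 probe by 3.02. RGS2, a regulator of G-protein signalling, stood at 146.3, 136.3 and 143.6 under DMSO and 465.9, 498.1 and 586.4 under CPT, a rise of 3.18 ± 0.24 (adjusted p = 5.85e-06). In each of these genes every CPT array lay above every DMSO array.

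PMAIP1, which encodes the pro-apoptotic BH3-only protein NOXA, had raw signals of 220.2, 149.2 and 164 under DMSO and 900.1, 540.9 and 737.3 under CPT and rose by 3.13 ± 0.28 (adjusted p = 1.58e-05), while another of its probes measured 1.61. GADD45A, a p53 target that takes part in arrest and repair, stood at 229.1, 208 and 262 under DMSO and 1110.7, 979.4 and 1170.6 under CPT and rose by 3.08 ± 0.21 (adjusted p = 3.03e-06). CDKN2B, which encodes the CDK4 and CDK6 inhibitor p15, measured 151.3, 154 and 177.9 under DMSO and 492.3, 623.8 and 516.6 under CPT, a rise of 2.91 ± 0.27 (adjusted p = 2.21e-05). The early-response gene IER5 had raw signals of 293.3, 238.5 and 268.9 under DMSO and 1400.6, 1163.6 and 1005 under CPT and rose by 2.89 ± 0.21 (adjusted p = 4.46e-06). FOSB, a partner of JUN in AP-1 dimers, rose by 3.21 ± 0.70 (adjusted p = 0.00476), and CCN1, a secreted relative of CCN2, by 2.97 ± 0.44 (adjusted p = 0.00042). ATP5MK, a small subunit associated with the ATP synthase, rose by 2.84 ± 0.17, and THAP10, a zinc finger gene, by 2.81 ± 0.17.

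Among genes detected on all 6 KO arrays, DDX10 and HS3ST1 had the largest falls. DDX10, a DEAD-box helicase of ribosome biogenesis, had raw signals of 789.2, 772 and 731.9 under DMSO and 120.2, 118.5 and 134.3 under CPT and fell by 3.74 ± 0.39 (adjusted p = 4.07e-05). MTUS1, a microtubule-associated protein, measured 917.6, 714 and 811.1 under DMSO and 139.5, 126.5 and 128.9 under CPT, a change of -3.59 ± 0.19 (adjusted p = 9.84e-07). HS3ST1, an enzyme that modifies heparan sulphate, had raw signals of 1731, 1577.6 and 2016.1 under DMSO and 246.2, 186.3 and 156.6 under CPT and changed by -3.72 ± 0.29 (adjusted p = 5.85e-06). For all of these genes the highest CPT array lay below the lowest DMSO array.

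KITLG, the ligand of the receptor KIT, had raw signals of 3139.3, 2916.7 and 3421.2 under DMSO and 360, 396.3 and 250 under CPT and changed by -3.50 ± 0.31 (adjusted p = 1.58e-05). CDK6, the G1 kinase that p15 inhibits, measured 495.9, 637.2 and 427.4 under DMSO and 113.2, 128.1 and 133.7 under CPT, a change of -2.99 ± 0.38 (adjusted p = 0.000144). NECTIN3, a cell adhesion protein, changed by -3.34 ± 0.49, STRN3, a scaffold of protein phosphatase complexes, by -3.26 ± 0.28, and TSPAN5, a tetraspanin, by -2.95 ± 0.52. The cytoskeletal linker SPECC1L changed by -3.04 ± 0.16 and a second probe was detected on all 3 DMSO arrays and no CPT array. DIP2B, whose second probe was also detected on no CPT array, changed by -3.31 ± 0.53 and ITPRID2 by -2.86 ± 0.42. ARHGEF7, an exchange factor for RAC and CDC42, changed by -2.98 ± 0.47.

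**Figure D1:**
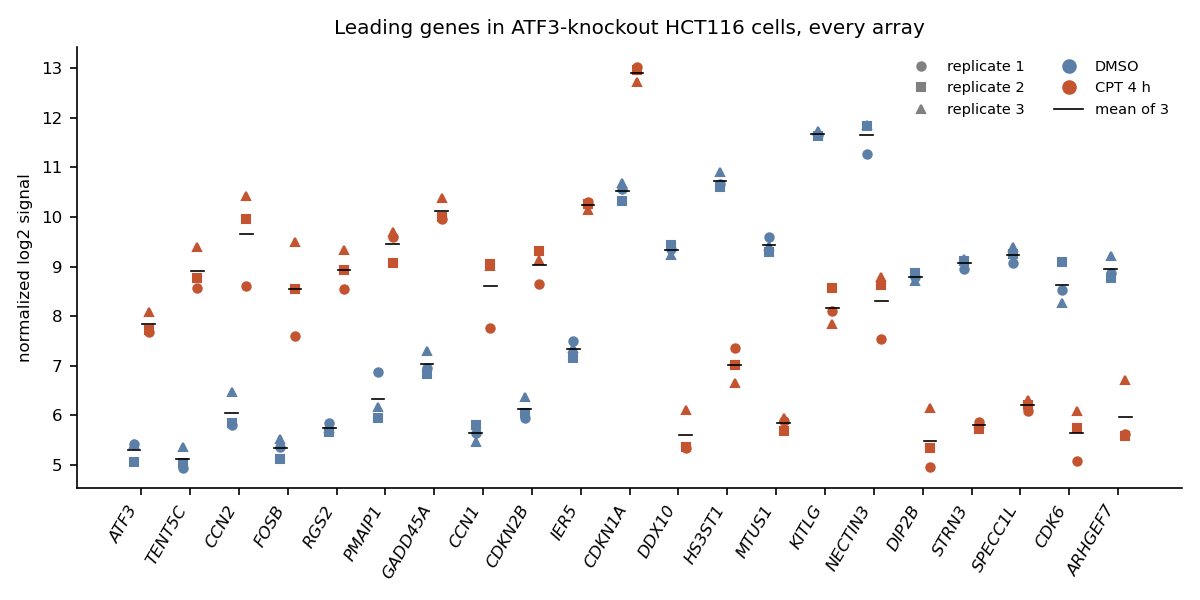
Normalized signal (log2, vertical axis) of ATF3, CDKN1A and the genes with the largest rises and falls on the 6 KO arrays, with 1 point an array, the marker shape giving the replicate number and bars at the group means. In every gene shown the 3 CPT arrays lay on one side of the 3 DMSO arrays.

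For genes detected in only one of the treatments the change is a bound, taken against the lowest detected signal. Of the 10464 genes tested, 55 were called rises detected on no KO DMSO array and all 3 KO CPT arrays. Among these, DYRK3, a kinase that dissolves stress granules, rose at least 2.68-fold, TAGLN3, an actin-binding transgelin, at least 2.37-fold, and SBSN, which encodes suprabasin, at least 2.27-fold. A detected DYRK3 probe of lower signal measured 0.68. Called falls from detection on all 3 KO DMSO arrays to detection on none numbered 229. The direction of such genes follows from their detection, and uncalled genes with either pattern were not counted. The KO arrays detected 15427 to 16292 probes under DMSO and 13732 to 15639 under CPT, so the 2 counts are not a result about direction. MLLT10, a cofactor of the histone methyltransferase DOT1L, fell at least 9.08-fold, SH3RF1, a scaffold of JNK signalling, at least 5.79-fold, PCDH7, a protocadherin, at least 4.16-fold and SLC25A13, a mitochondrial aspartate and glutamate carrier, at least 3.51-fold. A second MLLT10 probe was likewise detected on all 3 DMSO arrays and no CPT array, and a second PCDH7 probe on no KO array. Bounds are on the normalized scale after background correction and are not ratios of raw signals. Over the 24 named genes that fell to detection on no CPT array, the median of the fitted changes was -1.55, and -0.55 without background correction.

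Targets of p53 rose across 3 lists. Of those for arrest and feedback, 12 of 20 tested members rose and 0 fell, with a median of 0.93, where 13.9% of all genes rose and 17.9% fell. CDKN1A, which encodes the CDK inhibitor p21, had raw signals of 1637.8, 1327.1 and 1778.6 under DMSO and 9077.7, 8025.3 and 6793.8 under CPT and rose by 2.38 ± 0.27 (adjusted p = 6.47e-05). SESN1, a sestrin that restrains mTORC1, measured 158.5, 136.1 and 147.4 under DMSO and 633.6, 333.7 and 230 under CPT, a rise of 2.47 ± 0.38 (adjusted p = 0.000528). PHLDA3, an inhibitor of AKT, rose by 2.21 ± 0.34 (adjusted p = 0.000503) and GADD45B, a relative of GADD45A, by 1.91 ± 0.17 (adjusted p = 1.81e-05). MDM2, the ubiquitin ligase of p53, did not pass at -0.09 ± 0.15 (adjusted p = 0.704, detected on 1 of 3 CPT arrays).

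Among the p53 targets for apoptosis, 6 of 16 tested members rose and 1 fell, with a median of 0.44. Beside PMAIP1, BLOC1S2 rose by 2.64 ± 0.20 (adjusted p = 5.85e-06) and the decoy TRAIL receptor TNFRSF10D by 1.96 ± 0.46 (adjusted p = 0.00709). TRIAP1, which by contrast restrains apoptosis, rose by 1.67 ± 0.22 (adjusted p = 0.000176). BAX, the pore-forming effector of the mitochondrial pathway, rose by 0.93 ± 0.14 (adjusted p = 0.000539), though a dimmer BAX probe measured 0.05. BBC3, which encodes the BH3-only protein PUMA, measured 0.55 ± 0.24 (adjusted p = 0.0988), and passed with the replicate block (adjusted p = 0.0158). TNFRSF10B, the death receptor DR5, measured -0.20 ± 0.20 (adjusted p = 0.488).

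Of the p53 targets for repair and metabolism, 10 of 14 tested members rose (2 to 11 over other settings) and 0 fell, with a median of 0.72. SERTAD1, a CDK4-binding transcriptional coregulator, had raw signals of 807.8, 629.4 and 1094.3 under DMSO and 4419.3, 4759.6 and 3776.8 under CPT and rose by 2.59 ± 0.35 (adjusted p = 0.000232). GDF15, a secreted stress cytokine, had raw signals of 593.3, 252.9 and 666.4 under DMSO and 2336.7, 1309.8 and 1375.1 under CPT and rose by 2.28 ± 0.50 (adjusted p = 0.00468). XPC, the damage sensor of nucleotide excision repair, rose by 1.03 ± 0.23 (adjusted p = 0.00562) and RRAD, a small GTPase detected on no DMSO array and all 3 CPT arrays, at least 1.43-fold.

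In the FOS and JUN family, 4 of 7 tested members rose (2 to 5 over other settings) and 0 fell, with a median of 0.96. FOSB had raw signals of 124.6, 118.5 and 134.2 under DMSO and 278.6, 390.9 and 651.3 under CPT. FOS rose by 1.94 ± 0.41 (adjusted p = 0.00354, detected on 2 of 3 DMSO arrays), and JUNB rose by 0.96 ± 0.21 (adjusted p = 0.00431). JUN rose by 2.03 ± 0.55 (adjusted p = 0.015), but the call was lost when either of 2 arrays was left out (adjusted p up to 0.0603, for KO DMSO replicate 2).

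Of the ATF, CREB, MAF and CEBP factors, 5 of 20 tested members rose (2 to 8 over other settings) and 3 fell (1 to 3 over other settings), with a median of 0.32. MAFF, a small MAF protein, had raw signals of 135.7, 122.3 and 125.9 under DMSO and 221.1, 223.3 and 191 under CPT and rose by 1.88 ± 0.20 (adjusted p = 4.26e-05). The CEBP genes CEBPA and CEBPD rose by 1.40 ± 0.21 and 1.26 ± 0.26. ATF6, a sensor of misfolded protein in the endoplasmic reticulum, fell by 1.29 ± 0.21 (adjusted p = 0.00083). ATF4, the main factor of the integrated stress response, measured 0.49 ± 0.25 (adjusted p = 0.155) and passed with the replicate block (adjusted p = 0.0316).

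Because ATF3 and its relatives bind the ATF/CRE element, promoters of called genes were searched for it. RefSeq promoters of GRCh38.p14, each of 300 bases from 250 before to 50 after the annotated start, were matched by gene identifier for 8459 of the 10464 genes (80.8%). The palindrome TGACGTCA, searched on both strands, lay in 3.46% of all promoters, 3.8% of those of genes that rose and 3.77% of those of genes that fell. The AP-1 element TGACTCA lay in 2.98%, 3.11% and 2.72%, and the TATA element TATAAA in 5.23%, 7.35% and 4.76%. The promoters below show where the palindrome, in capitals, stood in 3 early-response genes that rose: MAFF (chr22:38201744-38202043, plus strand), DUSP1, a phosphatase of MAP kinases (chr5:172771146-172771445, minus strand), and PPP1R15A, which encodes the stress-induced phosphatase subunit GADD34 (chr19:48872171-48872470, plus strand). A match is a description of these letters and does not show a bound site.
MAFF: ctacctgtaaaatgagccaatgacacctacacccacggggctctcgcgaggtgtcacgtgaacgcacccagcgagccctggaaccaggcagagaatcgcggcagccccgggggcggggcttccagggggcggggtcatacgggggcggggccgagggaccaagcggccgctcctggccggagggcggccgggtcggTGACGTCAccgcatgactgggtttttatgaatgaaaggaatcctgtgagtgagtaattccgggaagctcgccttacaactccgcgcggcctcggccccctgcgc
DUSP1: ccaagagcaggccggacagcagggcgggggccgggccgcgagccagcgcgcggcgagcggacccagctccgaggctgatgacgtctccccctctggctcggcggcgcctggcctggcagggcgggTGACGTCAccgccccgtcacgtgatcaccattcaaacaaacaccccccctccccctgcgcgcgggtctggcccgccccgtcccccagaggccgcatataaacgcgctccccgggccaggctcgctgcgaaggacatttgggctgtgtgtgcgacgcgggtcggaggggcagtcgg
PPP1R15A: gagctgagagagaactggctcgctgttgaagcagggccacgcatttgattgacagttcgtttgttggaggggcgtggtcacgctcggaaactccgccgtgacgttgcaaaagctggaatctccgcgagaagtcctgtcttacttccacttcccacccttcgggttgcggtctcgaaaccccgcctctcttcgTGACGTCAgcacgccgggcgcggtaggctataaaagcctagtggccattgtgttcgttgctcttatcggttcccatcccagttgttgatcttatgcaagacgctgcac

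Counted from the annotated start, the first base of the palindrome was at -54 in MAFF, -125 in DUSP1 and -58 in PPP1R15A. DUSP1 had raw signals of 204.5, 200.2 and 220.9 under DMSO and 373.4, 316.7 and 377.5 under CPT and rose by 1.52 ± 0.24 (adjusted p = 0.000652). PPP1R15A measured 271.1, 273.4 and 347.4 under DMSO and 409.7, 469.7 and 459.4 under CPT, a rise of 1.15 ± 0.28 (adjusted p = 0.0085). Neither gene's DMSO and CPT arrays overlapped.

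Among the immediate-early EGR, IER, KLF, NR4A and ZFP36 genes, 6 of 21 tested members rose and 1 fell (0 to 2 over other settings, 2 with the replicate block), with a median of 0.50. Beside IER5 and PPP1R15A, CSRNP1, a nuclear protein induced by AXIN1, rose by 2.12 ± 0.56 (adjusted p = 0.013), the synaptic plasticity gene ARC by 1.13 ± 0.17 (adjusted p = 0.00042) and IER2 by 0.90 ± 0.22 (adjusted p = 0.00875). EGR1, a zinc finger factor of the same early class, measured 0.71 ± 0.34 (adjusted p = 0.126) and did not pass. Of the ERK feedback genes, 4 of 17 tested members rose (2 to 5 over other settings) and 4 fell, with a median of 0.17 (-0.11 under scaling to the median of all probes). RGS2, DUSP1 and the RAS pathway inhibitor SPRY2 (0.97 ± 0.22, adjusted p = 0.00622) rose, whereas the inhibitors SPRED1 (-1.98 ± 0.28, adjusted p = 0.000324) and SPRED2 (-1.86 ± 0.21, adjusted p = 6.21e-05) and the EGFR inhibitor ERRFI1 (-1.37 ± 0.20, adjusted p = 0.000397) fell.

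In the YAP and TEAD list, which holds targets and also the factors themselves, 2 of 13 tested members rose and 4 fell, with a median of -0.27 (0.08 under scaling to the median of detected probes). The targets CCN2 and CCN1 were the 2 that rose, while the coactivator YAP1 changed by -1.55 ± 0.21 (adjusted p = 0.000204), and its DNA-binding partner TEAD4 by -1.55 ± 0.28 (adjusted p = 0.0016). WWTR1, which encodes the paralogue TAZ, fell from detection on all 3 DMSO arrays to none, at least 1.78-fold. Another TEAD4 probe was detected on no CPT array.

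In the TGF-beta, BMP and ID list, 2 of 11 tested members rose and 3 fell, with a median of 0.01 (-0.29 under scaling to the median of all probes). The decoy receptor BAMBI rose by 1.60 ± 0.19 (adjusted p = 0.000111, detected on 2 of 3 DMSO arrays) and ID2, an inhibitor of basic helix-loop-helix factors, by 1.44 ± 0.21 (adjusted p = 0.000353). The receptor TGFBR2 changed by -2.05 ± 0.29 (adjusted p = 0.000282) and its effector SMAD3 by -1.40 ± 0.19 (adjusted p = 0.000206). In the NF-kB list, 2 of 14 tested members rose (2 to 6 over other settings, 6 with the replicate block) and 2 fell (1 to 4 over other settings, 4 with the replicate block), with a median of 0.30. These shares, 14.3% and 14.3%, were near those over all genes (13.9% and 17.9%). The inhibitor gene NFKBIA rose by 1.35 ± 0.22 (adjusted p = 0.000692) and NFKBIZ, a nuclear member of that family, by 2.01 ± 0.34 (adjusted p = 0.000915, detected on 2 of 3 DMSO arrays), while the precursor subunit NFKB1 changed by -2.03 ± 0.21 (adjusted p = 4.59e-05).

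Of the growth factors and receptors, 4 of 21 tested members rose and 3 fell (2 to 9 over other settings, 9 with the replicate block), with a median of -0.39. HBEGF, an EGF receptor ligand, had raw signals of 201.5, 188.9 and 273.5 under DMSO and 577.2, 476.4 and 1101.8 under CPT and rose by 2.47 ± 0.57 (adjusted p = 0.00662), whereas EREG, another ligand of that receptor, changed by -1.42 ± 0.24 (adjusted p = 0.000926). The receptor FGFR3 rose by 1.19 ± 0.27 (adjusted p = 0.00615), and another of its probes measured 0.17. Among apoptosis regulators outside the p53 lists, 2 of 18 tested members rose (1 to 4 over other settings, 4 with the replicate block) and 5 fell (1 to 6 over other settings), with a median of -0.03 (0.04 under scaling to the median of detected probes). The protective MCL1 rose by 1.32 ± 0.20 (adjusted p = 0.000531), with 0.61 on another probe, and the BH3-only BIK by 0.83 ± 0.20 (adjusted p = 0.00733), while the protective BCL2L1 and BCL2L2 changed by -1.37 ± 0.18 and -0.97 ± 0.22.

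TOP1, the target of CPT, did not pass in the KO cells. It had raw signals of 270, 265.7 and 278.2 under DMSO and 164.1, 178.2 and 184.1 under CPT, so every CPT array was lower, and the change was -0.59 ± 0.22 (adjusted p = 0.0621), with an adjusted p of 0.00897 with the replicate block. In its list of topoisomerases and adduct repair genes, 2 of 22 tested members rose (2 to 4 over other settings, 4 with the replicate block) and 5 fell (1 to 8 over other settings, 8 with the replicate block), with a median of -0.12. ERCC4, which encodes the repair nuclease XPF, rose by 1.06 ± 0.19 (adjusted p = 0.0012, detected on 2 of 3 DMSO arrays). The deubiquitinase USP7 changed by -1.64 ± 0.19 (adjusted p = 7.12e-05) and the SUMO-targeted ubiquitin ligase RNF4 by -0.96 ± 0.18 (adjusted p = 0.00209).

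Called genes of the damage checkpoint, recombination and replication were mostly falls. Of the checkpoint genes, 1 of 20 tested members rose (0 to 2 over other settings, 2 with the replicate block) and 8 fell (1 to 11 over other settings), with a median of -0.48. TOPBP1, the activator of the kinase ATR, changed by -1.90 ± 0.25 (adjusted p = 0.000223, detected on 2 of 3 CPT arrays), CHEK1, which encodes the kinase CHK1 that ATR activates, by -1.18 ± 0.26 (adjusted p = 0.0045) and TIPIN, a replication fork protein, by -1.12 ± 0.26 (adjusted p = 0.00722, detected on 2 of 3 CPT arrays). Of the homologous recombination and Fanconi genes, 0 of 22 tested members rose and 9 fell (2 to 11 over other settings), with a median of -0.55. BARD1, the partner of BRCA1, fell to detection on no CPT array, at least 1.78-fold. The helicase gene WRN changed by -1.14 ± 0.27 (adjusted p = 0.00662), and another WRN probe was detected on just 1 KO array.

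Of the DNA replication genes, 2 of 49 tested members rose (0 to 6 over other settings, 6 with the replicate block) and 18 fell (6 to 20 over other settings), with a median of -0.39. Of members detected on all 6 KO arrays, the origin recognition genes ORC2 and ORC5 had the largest falls. ORC2 had raw signals of 424, 356 and 394 under DMSO and 146.1, 126.8 and 121.2 under CPT, a change of -2.33 ± 0.18 (adjusted p = 5.85e-06), and ORC5 changed by -2.44 ± 0.32 (adjusted p = 0.000205), while another ORC5 probe was detected on just 1 KO array. The clamp loader genes RFC1 and RFC3 changed by -1.66 ± 0.28 and -1.62 ± 0.28 (detected on 2 of 3 CPT arrays), where another RFC1 probe measured -0.75, and the cell cycle factor E2F3 by -1.47 ± 0.18.

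Of the mitotic cyclins and kinases, 0 of 24 tested members rose (0 to 2 over other settings, 1 with the replicate block) and 8 fell (2 to 12 over other settings), with a median of -0.54. The kinase MELK had raw signals of 1262.8, 814.2 and 750.2 under DMSO and 268.7, 231 and 258.8 under CPT and changed by -1.99 ± 0.40 (adjusted p = 0.00261), and the cyclins CCNA2 and CCNB2 by -1.24 ± 0.29 and -1.17 ± 0.24. CDK1 and CCNB1, the kinase and cyclin that drive entry into mitosis, measured -0.53 ± 0.29 and -0.59 ± 0.43 and did not pass, though CDK1 passed with the replicate block (adjusted p = 0.0274). Of the mitotic kinesins, spindle and kinetochore genes, 1 of 39 tested members rose (0 to 1 over other settings) and 21 fell (10 to 28 over other settings), with a median of -0.79. KIF18A, a kinesin that dampens chromosome movement, fell from detection on all 3 DMSO arrays to none, at least 3.61-fold. The spindle kinesin KIF11 changed by -1.70 ± 0.21 (adjusted p = 0.000128), the kinetochore gene NDC80 by -1.48 ± 0.32 (adjusted p = 0.00459, detected on 2 of 3 CPT arrays) and KIF20B by -2.21 ± 0.31 (adjusted p = 0.000321, detected on 2 of 3 CPT arrays).

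Of the histone genes, 8 of 19 tested members rose (2 to 12 over other settings) and 0 fell (0 to 1 over other settings, 1 with the replicate block), with a median of 0.59. H3-3B, which encodes the replacement histone H3.3, had raw signals of 454.3, 493.1 and 533.1 under DMSO and 1480.3, 1530.1 and 1175.3 under CPT and rose by 1.91 ± 0.28 (adjusted p = 0.000397). H2BC5, a replication-dependent H2B gene with close copies on the array, rose by 1.39 ± 0.21 (adjusted p = 0.000536), the variant H2AJ by 0.87 ± 0.21 (adjusted p = 0.00838) and the linker histone H1-10 by 0.68 ± 0.16 (adjusted p = 0.00729).

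Probes named for small non-coding RNAs gave rises and no called fall in the classes of small nucleolar, small nuclear and Y RNAs. The probes were not placed on the genome. Whether they measured the mature small RNAs or longer transcripts is therefore not known here. Of 110 small nucleolar RNAs, which guide chemical modification of ribosomal and spliceosomal RNA, 24 rose (21.8%) and 0 fell, with a median of 0.38. Over all genes tested 13.9% rose and 17.9% fell. Of the 1293 genes with an annotated span under 5 kb, 24.2% rose and 2.86% fell, with a median of 0.33. The share of rises among small nucleolar RNAs was thus near that of short genes in general. SNORD84 had raw signals of 118.1, 122.7 and 126.5 under DMSO and 202.2, 296.8 and 191.3 under CPT and rose by 2.14 ± 0.25 (adjusted p = 9.41e-05), and SNORA63 by 1.57 ± 0.15 (adjusted p = 2.48e-05). Of 12 small nuclear RNAs 6 rose (50%), namely RNU6-1 (1.06 ± 0.20, adjusted p = 0.00217), RN7SK, the RNA that holds the elongation kinase CDK9 inactive, and 4 near-identical U1 genes, RNU1-1, RNU1-3, RNVU1-18 and RNVU1-7, whose signals cannot be told apart. RPPH1, the RNA of ribonuclease P, rose by 1.14 ± 0.21 (adjusted p = 0.00182, detected on 2 of 3 DMSO arrays). Of 147 long non-coding RNAs 16 rose (10.9%) and 10 fell (6.8%), against 13.9% and 17.9% over all genes. Of 12 small nucleolar RNA host genes 2 rose (16.7%, 2 to 7 over other settings), SNHG8 by 1.15 ± 0.19 (adjusted p = 0.000752) and SNHG15 by 1.04 ± 0.22 (adjusted p = 0.00406). These genes were chosen by their class after their values were seen, except SNHG8 and SNHG15.

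Of the RNA polymerase II elongation factors, 3 of 30 tested members rose (2 to 8 over other settings, 8 with the replicate block) and 5 fell (3 to 8 over other settings, 8 with the replicate block), with a median of -0.09 (0.01 under scaling to the median of detected probes). These shares, 10.0% and 16.7%, were near those over all genes (13.9% and 17.9%). CDK9, the kinase that releases paused polymerase, rose by 1.26 ± 0.20 (adjusted p = 0.000587) and its inhibitor HEXIM1 by 0.95 ± 0.25 (adjusted p = 0.0128). The elongation kinases CDK12 and CDK13 fell from detection on all 3 DMSO arrays to none, at least 2.67-fold and at least 2.61-fold. SETD2, the enzyme that trimethylates lysine 36 of histone H3 on transcribed genes, changed by -2.44 ± 0.32 (adjusted p = 0.000189).

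Of the RNA polymerase I, II and III subunits and factors, 5 of 42 tested members rose (2 to 8 over other settings) and 12 fell (1 to 17 over other settings), with a median of -0.12. The falls included POLR3B, the second largest polymerase III subunit, which had raw signals of 307.1, 365.7 and 331.4 under DMSO and 125.5, 100.2 and 102.2 under CPT and changed by -3.01 ± 0.27 (adjusted p = 1.7e-05, detected on 1 of 3 CPT arrays). The largest polymerase III subunit gene, POLR3A, changed by -1.01 ± 0.23 (adjusted p = 0.00563). Of the ribosome biogenesis factors, 1 of 43 tested members rose (0 to 4 over other settings, 3 with the replicate block) and 20 fell (10 to 23 over other settings), with a median of -0.46. After DDX10, NOC3L changed by -1.61 ± 0.30 (adjusted p = 0.0018), the RNA acetyltransferase NAT10 by -1.49 ± 0.18 (adjusted p = 0.000108) and WDR12 by -1.38 ± 0.19 (adjusted p = 0.00025). Of the cytosolic ribosomal proteins, 5 of 54 tested members rose (1 to 46 over other settings, 8 with the replicate block) and 1 fell (0 to 2 over other settings, 2 with the replicate block), with a median of 0.06 (0.64 with 46 rises under scaling to the median of detected probes).

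Of the SR proteins, hnRNPs and CLK kinases, which govern splicing, 1 of 35 tested members rose (1 to 6 over other settings, 6 with the replicate block) and 13 fell (7 to 13 over other settings), with a median of -0.19 (0.06 under scaling to the median of detected probes). SRSF3 had raw signals of 1036.3, 832.7 and 1089.2 under DMSO and 234.2, 234.2 and 219.8 under CPT and changed by -2.30 ± 0.16 (adjusted p = 3.19e-06). SRSF1 and SRSF7 changed by -1.69 ± 0.26 and -1.72 ± 0.26. CLK1, a kinase of SR proteins, was the list's rise, at 1.22 ± 0.17 (adjusted p = 0.000244).

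Nuclear pore and transport genes had the largest share of falls among the lists of at least 40 tested members: 0 of 44 tested members rose (0 to 1 over other settings, 1 with the replicate block) and 26 fell (13 to 32 over other settings), with a median of -0.74. AHCTF1, which encodes the pore assembly factor ELYS, measured 465.4, 463.5 and 478.7 under DMSO and 116.8, 108 and 97.6 under CPT, a change of -3.70 ± 0.25 (adjusted p = 2.93e-06, detected on 1 of 3 CPT arrays), and another AHCTF1 probe -1.51. The pore genes NUP35 and NUP153 changed by -2.74 ± 0.28 (adjusted p = 3.94e-05) and -2.12 ± 0.33 (adjusted p = 0.000544). XPO5, the exporter of microRNA precursors, changed by -2.05 ± 0.17 (adjusted p = 1.09e-05), and the importins KPNA4 and KPNA3 by -1.88 ± 0.27 and -1.55 ± 0.18.

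Called chromatin genes were mostly falls. Of the Polycomb and histone methylation enzymes, 2 of 34 tested members rose (0 to 4 over other settings, 4 with the replicate block) and 14 fell (7 to 17 over other settings), with a median of -0.45. JARID2, an accessory subunit of Polycomb repressive complex 2, had raw signals of 748.2, 776.8 and 879.2 under DMSO and 104.6, 107.7 and 124.1 under CPT and a change of -4.36 ± 0.41 (adjusted p = 2.21e-05, detected on 1 of 3 CPT arrays). SUZ12, a core subunit of that complex, changed by -1.69 ± 0.25 (adjusted p = 0.00044). The demethylase KDM6A fell to detection on no CPT array, at least 1.84-fold. Of the chromatin remodellers and acetyltransferases, 0 of 30 tested members rose (0 to 1 over other settings, 1 with the replicate block) and 15 fell, with a median of -0.59. The acetyltransferase CREBBP changed by -2.41 ± 0.24 (adjusted p = 3.77e-05) and the remodeller CHD1 by -2.20 ± 0.29 (adjusted p = 0.000218, detected on 2 of 3 CPT arrays). The remodeller subunits INO80 and BAZ1A changed by -1.96 ± 0.18 (detected on 2 of 3 CPT arrays) and -2.04 ± 0.30. Their other probes were detected on no CPT array, and that of INO80 on 1 DMSO array.

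Of the ubiquitin-specific proteases, 1 of 28 tested members rose (0 to 2 over other settings, 2 with the replicate block) and 12 fell, with a median of -0.56. USP37 changed by -1.84 ± 0.27 (adjusted p = 0.000441, detected on 2 of 3 CPT arrays), USP24 by -1.60 ± 0.18 (adjusted p = 5.93e-05) and USP34 by -1.34 ± 0.23 (adjusted p = 0.00115). In the list of mRNA decay, deadenylation and miRNA processing, 6 of 44 tested members rose and 20 fell (9 to 24 over other settings), with a median of -0.55. The poly(A) polymerases TENT5C and TENT5B (2.07 ± 0.40, adjusted p = 0.00226, detected on 2 of 3 DMSO arrays) and the antiproliferative deadenylation adaptor TOB1 (2.19 ± 0.17, adjusted p = 5.85e-06) rose. The exosome genes EXOSC3 and EXOSC2 changed by -2.08 ± 0.24 (adjusted p = 7.06e-05) and -1.85 ± 0.16 (adjusted p = 1.58e-05), and CNOT4, a ubiquitin ligase associated with the deadenylase complex, by -1.86 ± 0.30 (adjusted p = 0.000743), while its other 2 probes were detected on 1 and 2 DMSO arrays and no CPT array.

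Of the MYC network, 1 of 14 tested members rose (1 to 2 over other settings, 2 with the replicate block) and 3 fell, with a median of -0.17. These shares were 7.14% and 21.4%, against 13.9% and 17.9% over all genes. The antagonist MXD1, detected on no DMSO array and all 3 CPT arrays, rose at least 1.79-fold, while MGA, a partner of MAX, fell to detection on no CPT array, at least 2.36-fold. The ubiquitin ligase MYCBP2 changed by -1.51 ± 0.19 (adjusted p = 0.000142, detected on 2 of 3 CPT arrays) and the acetyltransferase scaffold TRRAP by -1.35 ± 0.27 (adjusted p = 0.00297). MYC itself, which is outside the list and was chosen with its value known, measured -0.49 ± 0.19 (adjusted p = 0.0705). It passed with the replicate block (adjusted p = 0.0107).

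**Figure D2:**
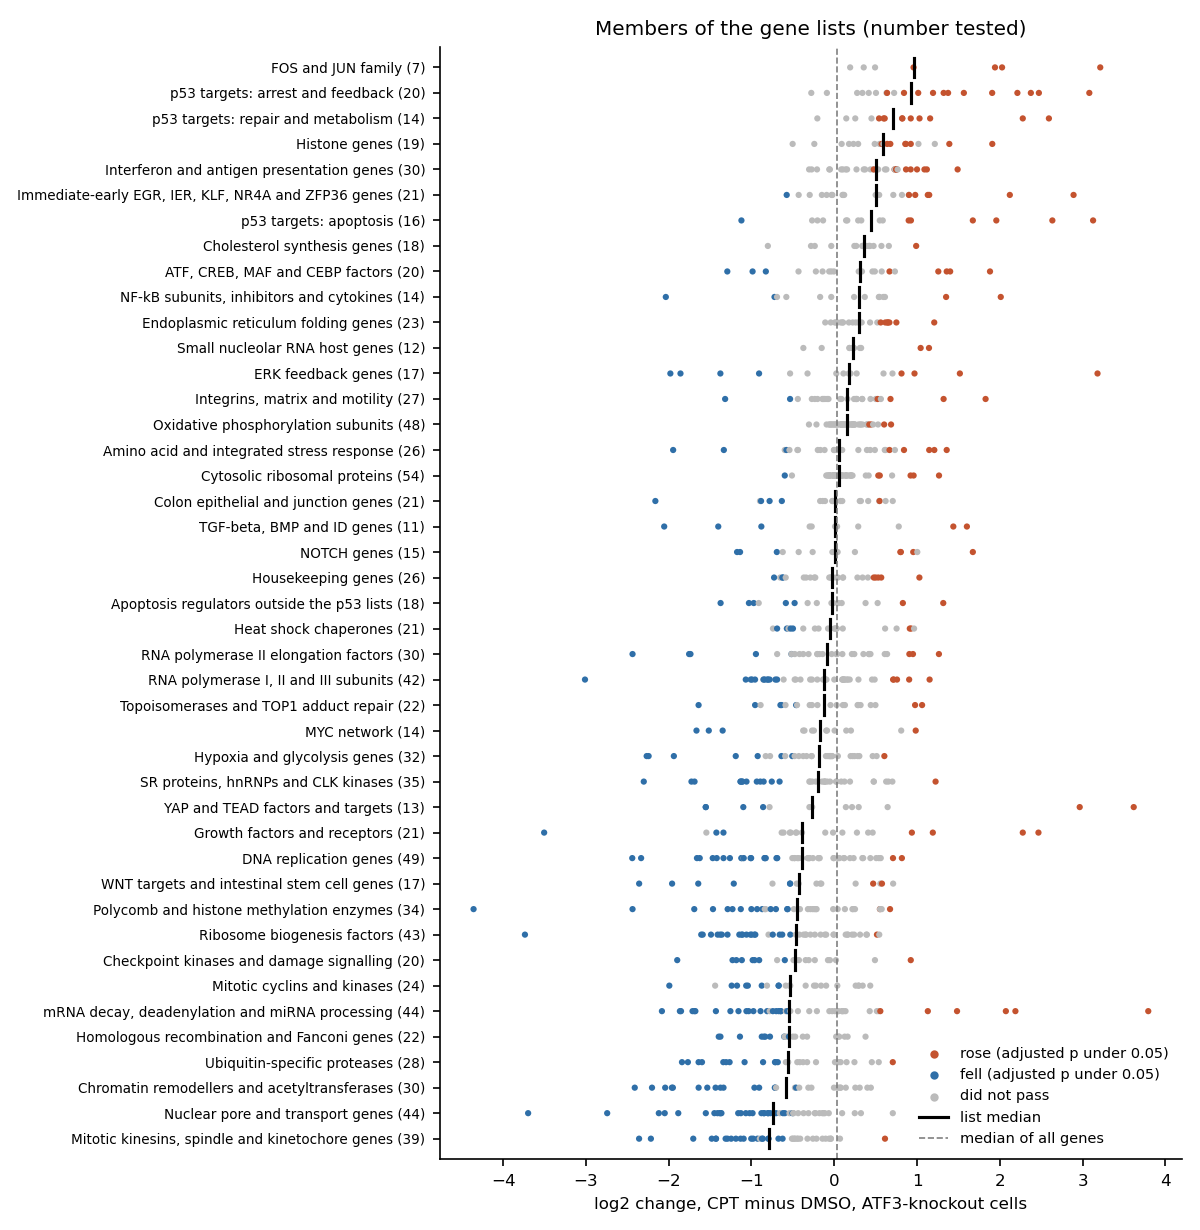
Log2 change in KO cells (CPT minus DMSO, horizontal axis) of every tested member of 43 gene lists, with 1 point a gene and the list median marked. A dashed line stands at the median of all 10464 genes, 0.03, and the medians of the p53, AP-1 and histone lists lie to its right while those of the nuclear pore, chromatin and mitotic spindle lists lie to its left.

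In the amino acid and integrated stress response, 5 of 26 tested members rose (1 to 9 over other settings, 9 with the replicate block) and 3 fell (1 to 5 over other settings, 5 with the replicate block), with a median of 0.06 (-0.21 under scaling to the median of all probes). The amino acid transporters SLC7A1 and SLC38A2 changed by -1.95 ± 0.19 (adjusted p = 2.48e-05) and -1.33 ± 0.29 (adjusted p = 0.00489), and ASNS, asparagine synthetase, measured 0.29 ± 0.42 (adjusted p = 0.638). Of the endoplasmic reticulum folding genes, 7 of 23 tested members rose (1 to 12 over other settings) and 0 fell, with a median of 0.30, among them CRELD2 at 0.75 ± 0.16 (adjusted p = 0.00444) and the chaperone HYOU1 at 0.67 ± 0.15 (adjusted p = 0.00544). Of the heat shock chaperones, 2 of 21 tested members rose (1 to 8 over other settings, 5 with the replicate block) and 4 fell (0 to 6 over other settings), with a median of -0.05 (0.23 under scaling to the median of detected probes). The cochaperone BAG3 rose by 0.93 ± 0.17 (adjusted p = 0.00161).

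In hypoxia and glycolysis, 1 of 32 tested members rose (0 to 5 over other settings, 2 with the replicate block) and 7 fell (1 to 10 over other settings), with a median of -0.19 (0.19 under scaling to the median of detected probes). The glucose transporter SLC2A1 had raw signals of 3713, 3116.1 and 5272.7 under DMSO and 1139, 583.9 and 1013.1 under CPT and changed by -2.24 ± 0.32 (adjusted p = 0.00034). The hexokinase HK2 changed by -2.27 ± 0.53 (adjusted p = 0.00685), with -0.76 on another probe. Of the oxidative phosphorylation subunits, 4 of 48 tested members rose (0 to 30 over other settings, 11 with the replicate block) and 0 fell, with a median of 0.16 (0.60 with 30 rises under scaling to the median of detected probes). Of the cholesterol synthesis genes, 1 of 18 tested members rose (0 to 7 over other settings, 7 with the replicate block) and 0 fell (0 to 1 over other settings), with a median of 0.36.

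Of the interferon and antigen presentation genes, 11 of 30 tested members rose (4 to 16 over other settings) and 0 fell, with a median of 0.50. IRF7, a regulator of interferon genes, had raw signals of 180.7, 172.7 and 174 under DMSO and 357.9, 312.8 and 200.2 under CPT and rose by 1.49 ± 0.26 (adjusted p = 0.00128). The peptide transporter TAP1 rose by 1.09 ± 0.18 (adjusted p = 0.000754), the interferon-induced IFI27 by 1.12 ± 0.28 (adjusted p = 0.0103, detected on 1 of 3 DMSO arrays), and the class I genes HLA-C and HLA-E by 1.00 ± 0.17 and 0.92 ± 0.15. HLA class I genes are similar in sequence, and signal shared between them cannot be told apart.

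Of the WNT targets and intestinal stem cell genes, 2 of 17 tested members rose (0 to 3 over other settings) and 6 fell (3 to 7 over other settings), with a median of -0.43. RNF43, the ubiquitin ligase that removes WNT receptors, fell from detection on all 3 DMSO arrays to none, at least 3.58-fold, with raw signals of 203.2, 206 and 236.7 under DMSO and 107.8, 96 and 100.1 under CPT. Without background correction its fitted change was -0.97, against -2.36. Its relative ZNRF3, also detected on no CPT array, fell at least 2.13-fold. The transcription factor TCF7L2 changed by -1.96 ± 0.22 (adjusted p = 6e-05, detected on 1 of 3 CPT arrays) and the feedback gene AXIN2 by -1.21 ± 0.30 (adjusted p = 0.00915). In the NOTCH list, 4 of 15 tested members rose (1 to 5 over other settings) and 3 fell (1 to 4 over other settings), with a median of 0.01 (-0.39 under scaling to the median of all probes), with the repressor HES6 at 1.67 ± 0.17 (adjusted p = 3.4e-05) and the ligand JAG2 at -1.17 ± 0.25 (adjusted p = 0.00384).

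Of the colon epithelial and junction genes, 1 of 21 tested members rose (0 to 4 over other settings, 4 with the replicate block) and 4 fell (1 to 5 over other settings), with a median of 0.01 (-0.11 under scaling to the median of all probes). The tight junction scaffold TJP1 changed by -2.16 ± 0.19 (adjusted p = 1.52e-05) and the keratin KRT19 by -0.78 ± 0.16 (adjusted p = 0.00315). In the list of integrins, matrix and motility, 4 of 27 tested members rose (1 to 7 over other settings) and 2 fell (1 to 3 over other settings), with a median of 0.16 (-0.12 under scaling to the median of all probes). The protease PLAU, which encodes urokinase, rose by 1.83 ± 0.43 (adjusted p = 0.0073) and the smooth muscle actin ACTA2 by 1.32 ± 0.31 (adjusted p = 0.00677).

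The length of a gene is a property that the choice of samples did not use, and the change in KO cells declined with it. The span of each gene between its annotated ends was taken from RefSeq (GRCh38.p14) for 10459 genes. Of 1293 genes under 5 kb, 24.2% rose and 2.86% fell, with a median change of 0.33. Of 800 genes over 160 kb, 2.38% rose and 41.0% fell, with a median of -0.48. The bins between had medians of 0.25 (5 to 10 kb), 0.20 (10 to 20 kb), 0.05 (20 to 40 kb), -0.19 (40 to 80 kb) and -0.48 (80 to 160 kb). Genes that rose had a median span of 12.7 kb and genes that fell one of 70.4 kb, against 24.6 kb for genes not called. The Spearman rank correlation of change and span was -0.44 across genes, which share the arrays and are not replicates. Among 7916 genes detected on all 6 KO arrays it was -0.42. The medians of the shortest bin were 0.34, 0.34 and 0.32 in the 3 pairs of replicates and those of the longest bin -0.59, -0.42 and -0.47. Without background correction the medians of the shortest and longest bins were 0.18 and -0.20, and with undetected probes included 0.04 and -0.05.

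**Figure D3:**
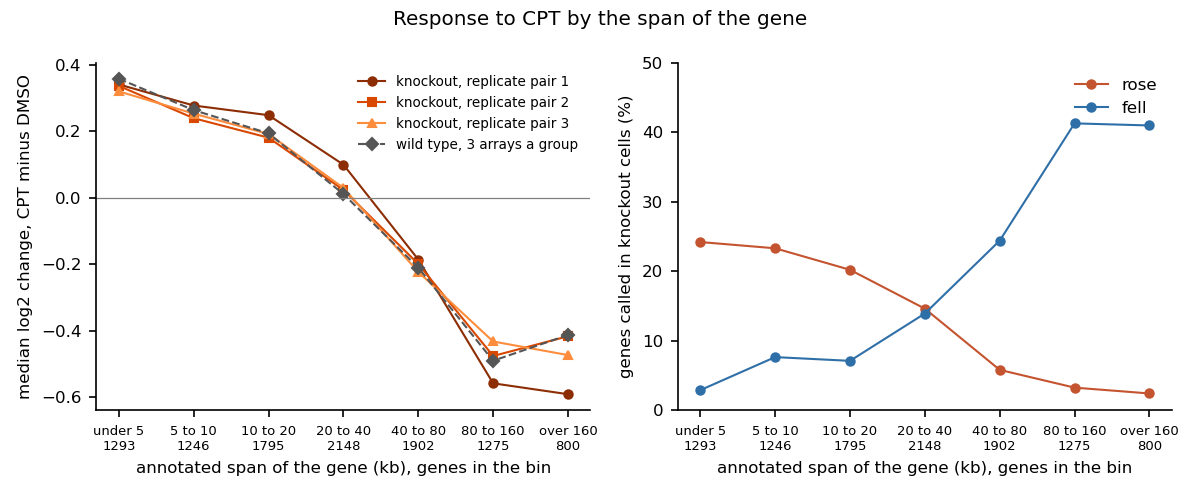
Left, median log2 change (CPT minus DMSO) in 7 bins of gene span in kb for the 3 pairs of KO arrays and for WT cells, and right, the percent of genes in each bin that rose or fell in KO cells. The median falls from 0.33 under 5 kb to -0.48 over 160 kb and the share of falls rises from 2.86% to 41.0%.

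Some gene lists differed in length in the same manner, and others did not. The nuclear pore and transport genes had a median span of 63.5 kb and the chromatin remodellers and acetyltransferases one of 94.4 kb, whereas the p53 targets for arrest and feedback had one of 16.5 kb and the histone genes one of 1.59 kb. In other lists the median change and the span did not go together, where the median span of all genes was 26.8 kb. The ribosome biogenesis factors had a median span of 18.4 kb and a median change of -0.46. For the mitotic cyclins and kinases these were 17.8 kb and -0.54, and for the p53 targets for repair and metabolism 32.2 kb and 0.72. Single genes were exceptions to the relation on both sides, and all these examples were chosen after their values were seen. Of genes over 80 kb, 60 rose, among them SESN1, the muscle M-band protein MYOM2 (2.44 ± 0.25, adjusted p = 4.07e-05), the kinase SGK1 (1.90 ± 0.26, adjusted p = 0.000275) and the laminin LAMA2 (1.24 ± 0.32, adjusted p = 0.0112, span 633.4 kb). Of genes under 5 kb, 37 fell, among them METTL1, which methylates transfer RNA (-2.31 ± 0.29, adjusted p = 0.000136), the lipid droplet protein HILPDA (-1.50 ± 0.25, adjusted p = 0.000938) and the centromere protein CENPB (-1.42 ± 0.32, adjusted p = 0.00513). The part of gene span in the results of the lists was not tested.

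Of other genes named in the study's text, the actin-severing protein gene GSN rose by 0.69 ± 0.17 (adjusted p = 0.00989). UTP23, a ribosome biogenesis factor, measured 0.49 ± 0.25 (adjusted p = 0.16) and passed with the replicate block (adjusted p = 0.0121). STK40, SPRY1 and MAL2 measured 0.08 ± 0.44, 0.17 ± 0.30 and 0.23 ± 0.19 (detected on 1 of 3 DMSO arrays and 2 of 3 CPT arrays) and did not pass. HYI and IGFL3 were not tested, since no probe of theirs passed the detection filter.

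WT cells were measured against their own DMSO arrays, and most changes in KO cells had the same sign there. Across the 10464 genes the changes in the genotypes had a Pearson correlation of 0.93 and a Spearman correlation of 0.91, given as a description of genes on shared arrays. Of the 3327 genes called in KO cells, 3313 (99.6%) had the same sign in WT cells, against 87.4% of all genes. Of these, 1032 rises and 1553 falls were also called in WT cells and 0 were called in the opposite direction. The genes that rose in KO cells had a median of 0.81 there and 0.72 in WT cells, and those that fell had medians of -1.03 and -1.02. As single examples, CDKN1A rose by 2.38 in KO and 2.35 in WT cells, GADD45A by 3.08 and 2.94, and PMAIP1 by 3.13 and 3.13. The p53 lists had medians of 0.93 in KO and 0.68 in WT cells for arrest and feedback. These were 0.44 and 0.89 for apoptosis, and 0.72 and 0.59 for repair and metabolism. From qRT-PCR, the study reported a weaker CPT induction of CDKN1A, BBC3 and GDF15 in KO cells.

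The difference between the responses was tested in a fit with the replicate number as a block. The block was used since the study's text speaks of a paired test. The study's curated list of genes regulated by ATF3 upon damage used that test at a p under 0.05. It left out genes with a small ATF3-binding score, and no adjustment of this p is stated. Calls here needed an adjusted p under 0.05 and used no binding data, so they do not repeat the study's test. None of the 10464 genes passed (0.0%), with 508 at an unadjusted p under 0.05 (4.85%) and a smallest adjusted p of 0.16. Without the block 0 passed too, with 198 at an unadjusted p under 0.05 (1.89%). Other processing of the arrays, given in the closing section, called 1 to 4 genes. A p that misses the threshold does not show that the responses were alike. The genes with the smallest p are given as values and were chosen after these were seen. NRIP1 changed by -0.07 in KO and -2.08 in WT cells, a difference of 2.01 ± 0.32 (adjusted p = 0.16 with the replicate block). NOSTRIN changed by 0.21 and -0.75, a difference of 0.96 ± 0.17 (adjusted p = 0.241). RNF43 changed by -2.36 and -1.03, a difference of -1.33 ± 0.24 (adjusted p = 0.241). BDNF, a neurotrophin, changed by -0.21 in KO and -2.04 in WT cells, a difference of 1.83 ± 0.26 (adjusted p = 0.16 with the replicate block). In KO cells it gave raw signals of 167.3, 190.7 and 172.7 under DMSO and 151.6, 150.3 and 130.7 under CPT, and in WT cells 388.6, 587.9 and 323.3 under DMSO and 147.9, 159 and 117.7 under CPT.

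MKX, a homeobox gene, changed by -1.50 in KO and -3.01 in WT cells, with raw signals under DMSO of 181.2, 241.5 and 276.2 in KO and 822, 1251.7 and 959.6 in WT cells. ADGRF1, an adhesion G-protein-coupled receptor, changed by -1.25 and -2.83, with 143.9, 153.3 and 149.4 and 586.9, 507.7 and 545.8. In both genes every WT DMSO array lay above every KO DMSO array. RGS2 went the other way, with a rise of 3.18 in KO and 1.25 in WT cells, a difference of 1.93 ± 0.32 (adjusted p = 0.172 with the replicate block). Its raw signals in WT cells were 794.5, 798.5 and 567.2 under DMSO and 1433.7, 1665.3 and 858.3 under CPT, while those in KO cells were 146.3, 136.3 and 143.6 under DMSO and 465.9, 498.1 and 586.4 under CPT. AURKA, a mitotic kinase, changed by -0.88 in KO and -2.17 in WT cells, a difference of 1.30 ± 0.24 (adjusted p = 0.241 with the replicate block). Its fall in KO cells was no longer called when any of 3 arrays was left out (adjusted p up to 0.0788, for KO CPT replicate 2).

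**Figure D4:**
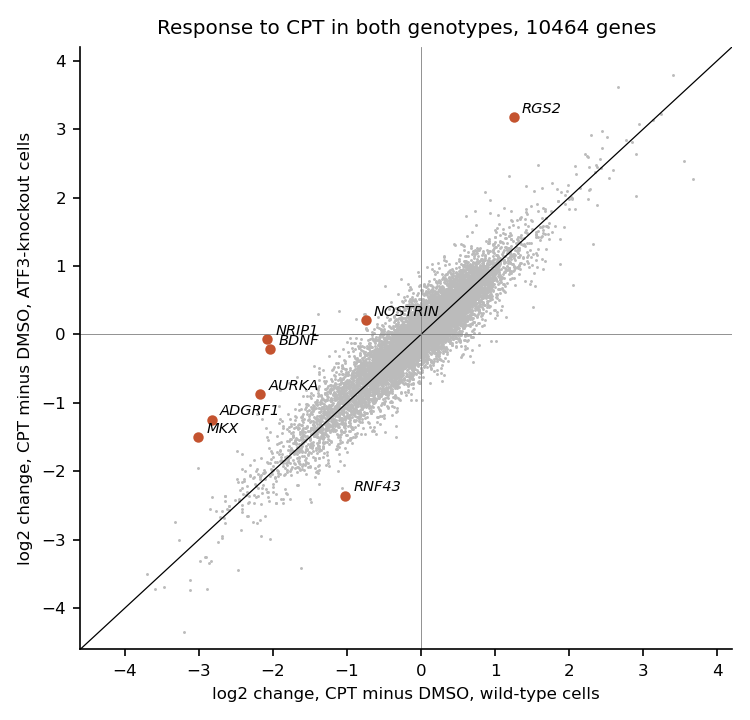
Log2 change with CPT in KO cells (vertical axis) against that in WT cells (horizontal axis), with 1 point for each of the 10464 genes and names on the 8 genes with the smallest p for the difference. Most points lie near the diagonal, and the named genes, none of which passed after adjustment, lie off it.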

How the data were processed

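RNA levels were measured with the Illumina HumanHT-12 v4 bead array. The authors deposited unscaled mean bead intensity values of 47300 probes exported from GenomeStudio (version not given in the sources used here), with a detection p-value for each probe and array against negative control beads, per the file headers. The authors also deposited intensity values after background subtraction and quantile normalization, made separately for replicate 1 and for replicates 2 and 3, and these served as an alternative. Signals were background-corrected with nec (offset 16), quantile-normalized together for 12 arrays and taken to log2. Probes naming 1 gene (30098 probes, while 8 named several and 17194 none) and detected at p under 0.01 on at least 3 arrays were kept (17264 probes kept before the naming filter), and the brightest probe of each gene was used (10464 genes, 2647 with more than 1 kept probe). Another kept probe is mentioned where it differed by more than 0.5. Only called genes picked by the naming rule below, and genes in the study's text, were compared in this way. Other probes of further genes, such as SGK1, LAMA2, METTL1 and list members that did not pass, were not compared. Symbols came from RefSeq (GRCh38.p14), which matched 30059 probes.

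All 12 arrays were fitted with limma 3.58.1 in R 4.3.3 (lmFit and eBayes, two-sided, a mean per group, 8 residual degrees of freedom), with calls at an adjusted p (Benjamini-Hochberg) under 0.05. Same-numbered KO arrays deviated together from their group means (r = 0.39 to 0.58 for the 3 pairs, -0.42 to -0.05 for the 6 pairs of different numbers), so the numbers pair the samples, and a blocked fit (6 residual degrees of freedom) is quoted where it changed a call or moved a count by over 1.5 times. Arrays of a KO group correlated at 0.966 to 0.987. The fits were tested on simulated data. The number of arrays limits the precision.

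The samples were chosen by their labels, and the gene lists with earlier results of these data known. The lists share some members and are described by counts and medians with no test. Named genes were ATF3, the 12 largest rises and falls without overlap, genes detected in only 1 treatment, up to 6 called members of each list, genes in the study's text and some list members that did not pass, chosen with their values known. For any other gene the text says that its values were known when it was chosen. Bounds compare the brighter group with the lowest detected signal.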

Additional observations from a re-analysis of the deposited data

How the results depend on the processing

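The total number of genes changed in KO cells was 1328 with the authors' normalized values (459 up, 869 down), fitted without the replicate block. It was 2196 in replicates 2 and 3 alone (898 up). Replicate 1 moved the same way in 2176 of these 2196 genes (99.1%), against 81.9% of all genes. With the replicate block the total was 5085 (2523 up), and with the block on the 6 KO arrays alone 5330 (2663 up). The rises numbered 432 under scaling to the median of all probes and 2313 under scaling to that of detected probes, an alternative chosen after seeing the data. None of the 3327 genes was called in the opposite direction by the authors' values, the median scalings, the replicate block on all arrays, or replicates 2 and 3. Leaving out each array gave 2353 to 3786 genes, 955 to 1692 up and 1398 to 2094 down.

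The difference between the genotypes called 2 genes without background correction (MKX and ADGRF1), 3 under scaling to the median of all probes (NRIP1, BDNF and ADGRF1), 4 under scaling to that of detected probes (these and RNF43), and 1 with the authors' values (RNF43), against 0 without each array in turn. The median change of all genes was 0.0175 without background correction, -0.1857 and 0.2036 under the median scalings, 0.0857 for probes detected on all 6 KO arrays and 0.0123 with no detection filter, and 0.0192 to 0.038 without each array. For genes under 5 kb the median was, in the same order, 0.1777, 0.1607, 0.5501, 0.3773 and 0.0399, with 0.3771 for the authors' values, 0.313 for replicates 2 and 3 and 0.3068 to 0.3441 without each array. For genes over 160 kb it was, in that order, -0.1975, -0.7003, -0.3109, -0.3746 and -0.0475, and -0.541 to -0.4416 without each array.

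Of 283 called named genes, 152 kept their call and sign under every setting and 88 lost the call without at least 1 array. The authors' values, normalized in separate sets and fitted without the replicate block, ended 108 of these calls. Replicates 2 and 3 alone ended 69, scaling to the median of all probes 63 and to that of detected probes 20. CCND1, called lower, measured 0.0064 under scaling to detected probes. Of genes not called, MDM2 turned to 0.1836 under that scaling and ranged from -0.1801 to 0.0037 when single arrays were left out (highest without KO CPT replicate 2), and SPRY1 to -0.1137 under scaling to all probes and -0.053 in replicates 2 and 3. STK40 turned to -0.3058 under scaling to all probes and to -0.0524, -0.0098 and -0.1657 without KO DMSO replicate 1, KO DMSO replicate 2 and KO CPT replicate 3 (range without single arrays -0.1657 to 0.312). The causes of these shifts were not tested. Of the falls, 560 ended in detection on fewer than 3 KO CPT arrays.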
